A study of Mus musculus with 69 samples.

Results

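The effect of deleting Tlr7 was examined in male primary microglia kept without myelin, as all genes expressed in 6 of the 69 libraries of the study. The members are the 3 libraries of Tlr7 knockout microglia (labelled TLR7:-/-, here KO) and the 3 libraries of wild-type microglia (WT) that carry the labels male, primary microglia and DMSO in the table of primary microglia. All 6 share the label of postnatal day 1 to 3 as the age of the mice and received DMSO, a solvent, where other libraries received myelin. The study, on Tlr7 and sex differences in demyelination, also holds hippocampal tissue and, in the same microglia table, 18 further libraries of females or of myelin-treated cells. Libraries were made with QuantSeq, a 3′ tag method that reads transcripts near their end, so counts carry no information on the rest of the transcript. The labels give the molecule as nuclear RNA and name neither animals nor cultures. The p-values below therefore measure only the spread between libraries, which may be technical. That spread was estimated over all 24 primary microglia libraries, females and myelin-treated cells included, and not over these 6 alone.

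TLR7 is an endosomal receptor for single-stranded RNA that is carried from the endoplasmic reticulum to endosomes by UNC93B1, matured by lysosomal proteases and coupled through MYD88 to IRAK and TRAF kinases. Signalling ends in NF-kB, which drives cytokines, and in IRF5 and IRF7, which drive type I interferon and, through its receptor, the interferon-stimulated genes. The gene lies on the X chromosome next to its relative Tlr8, and microglia are among the brain cells that express it.

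The 6 libraries held 15450170 to 17038825 counts each. Of 54532 genes in the table, 14468 passed a filter on low counts. Normalised read counts are given as counts per 1000000 counts of the library (CPM) with edgeR's TMM scaling, and "called" means an adjusted p under 0.05 in edgeR's quasi-likelihood test over all 14468 genes. The knockout was visible in every library, with Tlr7 at 182, 193 and 184 CPM in WT and 1.42, 2.32 and 2.303 CPM in KO. Ddx3y, on the Y chromosome, stood at 72.6 to 80.1 CPM in all 6, and Xist, from the inactive X chromosome of females, at 0.93 to 1.96 CPM in KO and 0 to 0.06 CPM in WT. The 12 microglia and macrophage markers summed to 8483 to 8873 CPM in WT and 8166 to 8479 CPM in KO. Of other leukocytes, 13 of their 19 markers had no count in WT and 12 had none in KO, Cd3e, Ncr1 and Ly6g among them. Those with most counts, picked after their values were seen, were Ccr2 (280 in WT and 222 in KO), S100a8 (131 and 184) and Cd4 (40 and 35). Of 3 leukocyte markers tested 1 was called higher and none lower, against 11.6% higher over all genes. No fit without 1 library called any of them.

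One library stands apart and is given here before the results. KO replicate 3 had interferon-stimulated genes near the WT level while the other two KO libraries had them low. In that library 56 of the 74 interferon-stimulated genes tested exceeded the lowest WT library. In both KO replicates 1 and 2, 71 of the 74 were lower than in any WT library. Among the 1348 genes called lower in KO, 60 exceeded the lowest WT library in replicate 3 (4.45%). That share cannot serve as a background, since a call of lower is less likely where 1 KO library is at the WT level. The Tlr7 level of KO replicate 3, 2.303 CPM, was that of the other KO libraries. Over all genes, 2587 of 14816 were called without it (17.5%), 9.17% higher and 8.3% lower. Gene lists whose counts or medians it moves most are given with and without it. KO replicate 3 was set apart by its interferon-stimulated genes, so values of those genes without it are no separate test.

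Loss of Tlr7 went with a called change in 3027 of 14468 genes, or 20.9% of those tested, with 1679 higher in KO (11.6%) and 1348 lower (9.32%). The changes were mostly small. Among called genes 2019 differed by less than 0.5 on the log2 scale, and the median size was 0.24 for the higher and 0.60 for the lower genes. At least 2-fold changes numbered 536, or 3.7% of the genes tested, 75 higher and 461 lower. The median over all genes was 0.00 on the log2 scale, and over the 788 genes with a mean of at least 200 CPM it was 0.05. Groups did not overlap in 5095 genes (35.2%). Leaving out 1 of the 6 libraries in turn left 1624 genes called in the same direction in all 6 fits. With the log2 CPM of Ttr and Pdgfra, genes of other cell types, as covariates the count fell to 532, and testing against a fold of 1.2 gave 725. Both covariates were themselves called lower in KO (-4.10 and -0.84 on the log2 scale). With them the median SE rose from 0.25 to 0.52 in interferon-stimulated genes and from 0.03 to 0.06 in lysosomal genes. A call lost with the covariates therefore need not mean a smaller difference.

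**Figure D1:**
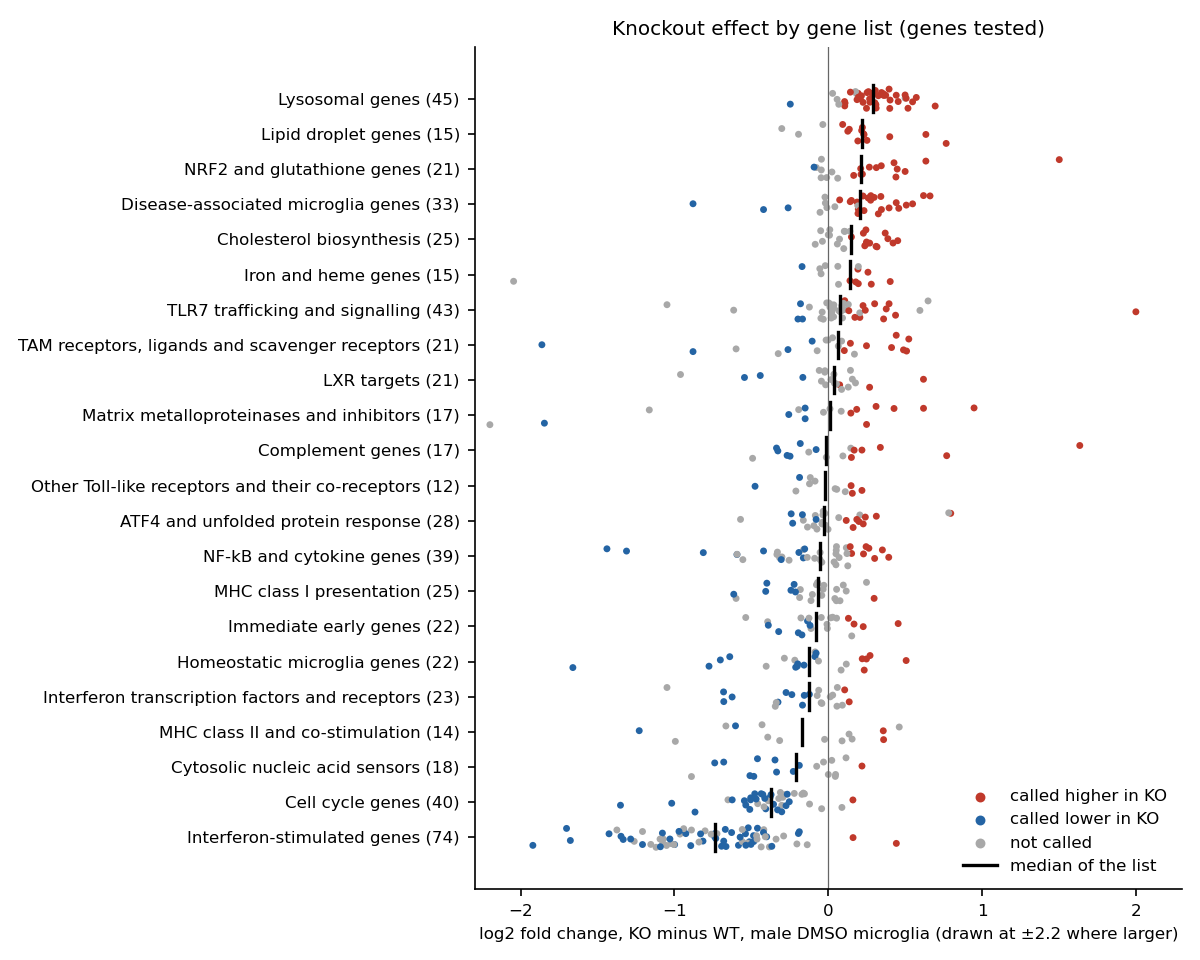
Log2 fold changes (KO minus WT, horizontal axis) of every tested member of 22 gene lists, with 1 point per gene and the median of each list as a black bar. Interferon-stimulated and cell cycle genes lie mostly left of 0 (medians -0.73 and -0.38), lysosomal, lipid droplet and disease-associated microglia genes mostly right of it (medians 0.29, 0.22 and 0.21).

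Tlr7 itself and the X chromosome around it come first. Tlr7 fell by 6.53 on the log2 scale (ratio of KO to WT 0.0109, adjusted p = 2.4e-52), and the counts that remain cannot be placed along the transcript from these files. Tlr8, the neighbouring endosomal RNA receptor, was slightly lower, at 115, 118 and 114 CPM in WT and 102, 102 and 101 CPM in KO (log2 fold change -0.19 ± 0.05 (SE), adjusted p = 0.0042). Its groups did not overlap. Tmsb4x, which encodes the actin-binding peptide thymosin beta 4, fell from 3362 ± 24.6 CPM to 2738 ± 90.3 CPM (mean ± SD, n = 3 each, -0.30 ± 0.03 on the log2 scale). Within 2 Mb of Tlr7 and leaving Tlr7 out, 3 of 15 genes were called, Tmsb4x, Tlr8 and Gpm6b, all lower, against 20.9% over the genome. Gpm6b, a membrane protein of neural cells, stood at 20.01, 24.6 and 17.5 CPM in WT and 13.7, 12.8 and 9.85 CPM in KO. All KO libraries lay below all WT libraries. Of the remaining protein-coding genes there, Prps2, Msl3, Hccs, Arhgap6, Rab9, Trappc2, Ofd1, Tceanc, Gemin8 and Frmpd4 were not called.

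Further out, Mid1, a ubiquitin ligase of microtubules that spans the pseudoautosomal boundary in mice, was at 4.53, 7.18 and 5.14 CPM in WT and 0.805, 0.891 and 1.34 CPM in KO (log2 fold change -2.47 ± 0.23 (SE), adjusted p = 3.6e-13). All KO libraries lay below every WT library. G530011O06Rik, a transcript inside the Mid1 span, was lower still, at 6.89, 10.2 and 8.25 CPM in WT and 0.372, 0.297 and 0.3199 CPM in KO (log2 fold change -4.65 ± 0.26, adjusted p = 1.2e-21); it was singled out after its values were seen. Transcripts that overlap Mid1 share its locus, and since the strand setting of the counting is not given, their counts may not be separable from it. Within 20 Mb of Tlr7 18 of 80 genes were called (22.5%, against 20.9% over all genes), 10 higher and 8 lower.

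**Figure D2:**
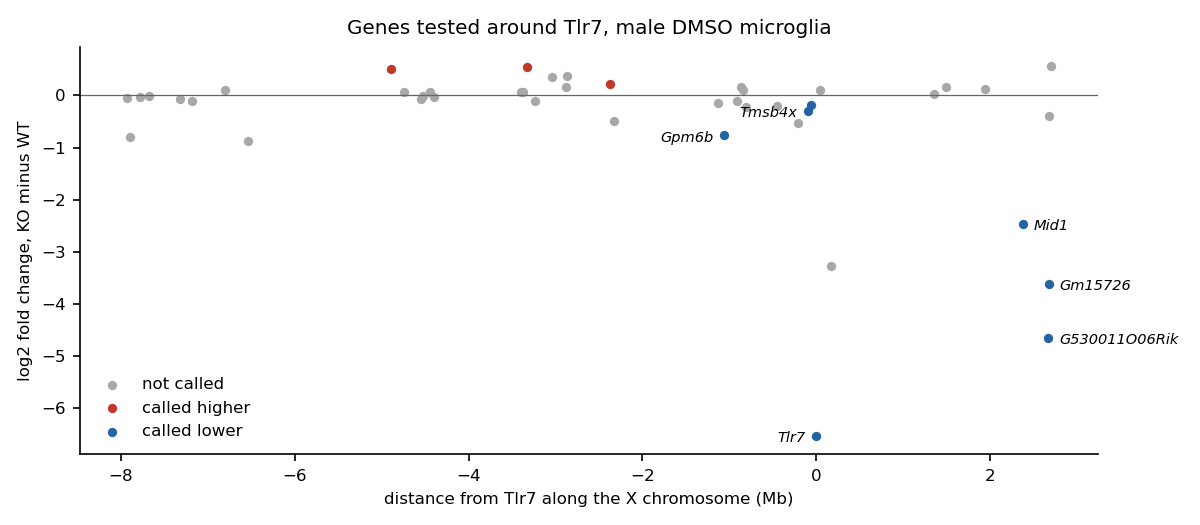
Log2 fold change (vertical axis) of genes tested between -7.93 and 2.70 Mb from Tlr7 against distance from Tlr7 in Mb, coloured by call. Besides Tlr7 at -6.53, the called genes with large negative values are Mid1 at -2.47 and transcripts inside its span, while Tmsb4x (-0.30) and Gpm6b (-0.76) changed less.

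Wdfy1 was the most clearly raised gene of the TLR7 trafficking and signalling list. It encodes a FYVE-domain endosomal protein reported to bring adaptors to TLR3 and TLR4. Its level was 23.2, 22.04 and 20.9 CPM in WT and 87.1, 90.9 and 86.9 CPM in KO, with no overlap and about 4 times as high in KO (log2 fold change 2.0001 ± 0.06 (SE), adjusted p = 2.2e-35). Wdfy1 was likewise higher in female KO microglia (1.88) and in male KO microglia with myelin (1.78), both on the log2 scale.

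The rest of the TLR7 machinery moved by less than 0.5 on the log2 scale in every called member but Wdfy1. Of 43 genes in the list 12 rose and 3 fell, with a median of 0.08, against 11.6% higher and 9.32% lower over all genes. After Wdfy1 the risers with the smallest p were endolysosomal. Pld3, a 5′ exonuclease that trims single-stranded nucleic acids, was at 755, 770.4 and 777 CPM in WT and 1031, 1055 and 1032 CPM in KO (log2 fold change 0.44 ± 0.03 (SE), adjusted p = 4.0e-20), and the proteases Ctsb and Ctss rose by 0.40 ± 0.02 and 0.36 ± 0.03. Each of the KO libraries exceeded every WT library in these 3 genes. The 3 members that fell were the chaperone Unc93b1 (-0.20 ± 0.03), the adaptor Myd88 (-0.18 ± 0.06) and the transcription factor Irf5; the first 2 are named after their values were seen. Irf5 was at 219, 226 and 216 CPM in WT and 205, 187 and 197 CPM in KO (log2 fold change -0.17 ± 0.03 (SE), adjusted p = 2.0e-04). Each WT library exceeded every KO library in it. Among the other Toll-like receptors and co-receptors 3 of 12 tested genes rose and 2 fell (median -0.02), and without KO replicate 3, 2 rose and 4 fell. Tlr1, a TLR2 partner for lipopeptides, was at 55.3, 60.6 and 58.3 CPM in WT and 41.2, 41.6 and 42.4 CPM in KO (log2 fold change -0.48 ± 0.06 (SE), adjusted p = 4.0e-09), while Tlr13, a receptor for bacterial ribosomal RNA, rose by 0.22 ± 0.03 and Cd180, a regulator of TLR4, by 0.15 ± 0.04, the call of Cd180 being lost without KO replicate 3 (0.10).

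Interferon-stimulated genes, which encode antiviral effectors and are the usual readout of type I interferon, were mostly lower in KO. Of 77 listed genes 74 were tested: 41 fell, 2 rose and the median was -0.73, against 9.32% lower and a median of 0.00 over all genes. The groups did not overlap in 18 of the 41 (8.7% of all genes were called lower without overlap). Without KO replicate 3, 70 of the 74 fell and the median was -1.16, against 8.3% lower over all genes. That library was set apart by these same genes, so this count is no separate test. The count also moved without other libraries, to 12 without KO replicate 1, 10 without KO replicate 2, 23 without WT replicate 1, 12 without WT replicate 2 and 42 without WT replicate 3. It was 5 in a fit of the 6 libraries alone, 6 against a fold of 1.2 and 0 with the covariates, where the size did not shrink (median -0.73, with the median SE of its members at 0.52 in place of 0.25).

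The split between KO libraries shows in single genes. Irf7, the factor that amplifies interferon production downstream of TLR7, was at 64.1, 76.2 and 48.2 CPM in WT and 14.9, 16.9 and 60.1 CPM in KO. KO replicates 1 and 2 lay below all WT libraries and replicate 3 between WT replicates 3 and 1, so that the difference of -1.05 ± 0.39 was not called (adjusted p = 0.068). Without replicate 3 it was -1.99, and of the 6 fits without 1 library Irf7 was called in this 1 alone. Replicate 3 was set apart by these same genes, so that call is no separate test. Isg15, a ubiquitin-like modifier, was at 18.5, 26.1 and 15.005 CPM in WT and 4.71, 3.86 and 20.5 CPM in KO, and Ifit3, an antiviral adaptor, at 20.2, 30.5 and 12.7 CPM in WT and 3.84, 3.68 and 19.3 CPM in KO. In both, KO replicates 1 and 2 lay below all WT libraries and replicate 3 within the WT range, and neither was called (adjusted p = 0.13 and 0.14); without replicate 3 their differences were -2.22 and -2.50. Cxcl10, a T cell chemokine, was under 1.5 CPM in every library and not called (-1.003 ± 0.49, adjusted p = 0.15).

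Several members were called with replicate 3 included. Ifi27l2a, an interferon-induced mitochondrial protein, was at 38.1, 34.1 and 32.5 CPM in WT and 7.43, 9.74 and 28.5 CPM in KO (log2 fold change -1.21 ± 0.30 (SE), adjusted p = 0.0084), KO replicate 3 just below the lowest WT library. Fcgr1, the high-affinity IgG receptor, was at 259, 298 and 249 CPM in WT and 139, 149 and 211 CPM in KO (log2 fold change -0.69 ± 0.13 (SE), adjusted p = 5.8e-04), with no overlap. Gbp7, a guanylate-binding GTPase, and Pnp, a purine nucleoside phosphorylase, fell by 0.57 and 0.49 on the log2 scale. Mx1, Oas2, Oas1g and Ifitm3, antiviral effectors chosen here after their values were seen, fell with differences of -1.68, -1.43, -1.28 and -0.89; in all 4, replicate 3 lay below the lowest WT library but nearer to it than to the other KO libraries. Of the 6 fits without 1 library, Mx1 and Ifi27l2a were called in 5, Oas2 in 4 and Ifitm3 in 3. Members of the Oas, Ifit and Ifi200 clusters are close relatives, and reads may be split among them. The 2 members that rose were Ifi27 (0.44 ± 0.06) and Ms4a6d (0.16 ± 0.05).

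**Figure D3:**
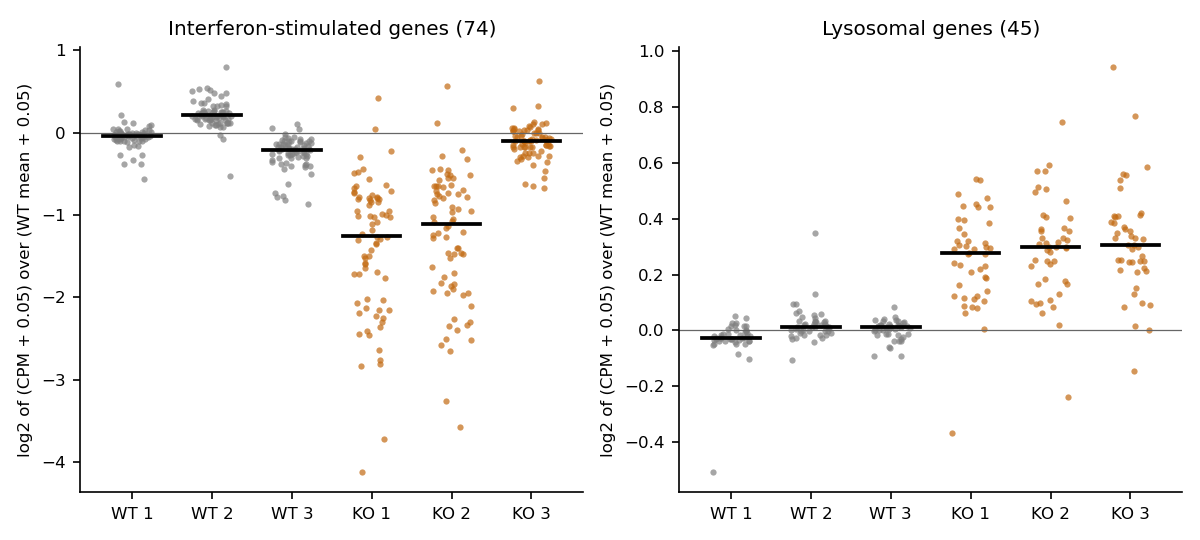
Each point is 1 gene in 1 library, as the log2 ratio of its CPM to the WT mean (0.05 CPM added to both), for the 74 interferon-stimulated genes (left) and the 45 lysosomal genes (right), with the median as a black bar. KO replicates 1 and 2 sit at medians of -1.25 and -1.11 for interferon genes and KO replicate 3 at -0.10, within the WT range of -0.20 to 0.21, whereas all KO libraries are at 0.28 to 0.31 for lysosomal genes.

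Interferon-stimulated promoters are known for the interferon-stimulated response element, a pair of GAAA blocks bound by IRF and STAT complexes. Stretches of 60 bases upstream of 4 listed genes are shown, all chosen among genes that hold the motif. Gbp7 and Oas1g come from the members called lower, ranked by p, and Isg15 and Ifit3 were added by name. In these genes KO replicate 3 stood above the other KO libraries. Capitals mark every match to GAAANNGAAA or its reverse complement. The stretches are from RefSeq (GRCm38.p6), written along the gene's own strand.
Isg15: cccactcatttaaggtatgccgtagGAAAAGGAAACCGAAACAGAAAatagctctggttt
Ifit3: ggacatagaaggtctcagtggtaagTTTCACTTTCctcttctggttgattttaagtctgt
Oas1g: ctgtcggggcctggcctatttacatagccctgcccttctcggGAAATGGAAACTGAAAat
Gbp7: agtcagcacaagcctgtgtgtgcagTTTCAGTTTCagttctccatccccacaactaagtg
They lie at chr4:156200862-156200921 on the minus strand (Isg15), chr19:34583348-34583407 on the plus strand (Ifit3), chr5:120887614-120887673 on the minus strand (Oas1g) and chr3:142530258-142530317 on the plus strand (Gbp7). Searching the 250 bases before the start on both strands, with overlapping matches allowed, 25 of 58 listed genes found in the RefSeq table held the motif (43.1%). Over all 32851 windows of that length the share was 2.98%, and over the 10345 tested genes with a RefSeq entry 3.33%. The motif was in 11 of 31 called and 14 of 27 uncalled members of the list. A match describes letters and is neither a site nor a cause.

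Among the factors around the interferon loop more fell than rose. Of 23 interferon transcription factors, receptors and regulators tested, 9 fell and 2 rose (median -0.12, against 9.32% lower and 11.6% higher over all genes), and without KO replicate 3, 11 fell and 1 rose. Socs1, the inducible brake on JAK signalling, was at 14.2, 15.04 and 13.3 CPM in WT and 8.61, 9.62 and 9.34 CPM in KO (log2 fold change -0.63 ± 0.10 (SE), adjusted p = 2.7e-06), here with KO replicate 3 beside the other KO libraries. Irf2 (-0.27 ± 0.05) and Irf8 (-0.16 ± 0.03), the latter a lineage factor of microglia, fell slightly. Of 18 cytosolic nucleic acid sensors 9 fell, 3 of them without overlap, and 1 rose (median -0.21). The lower count was 5 without WT replicate 1, 3 without WT replicate 2, 4 without either KO replicate 1 or 2 and 10 without KO replicate 3, and 1 with the covariates (median -0.25, with the median SE of its members at 0.17 in place of 0.08). Mb21d1, the DNA sensor cGAS, fell by 0.51, Samhd1, a deoxynucleotide hydrolase, by 0.34, Ikbke, a kinase of IRF3, by 0.23 and Trim25, a ligase acting on RIG-I, by 0.19 on the log2 scale. In Trim25 KO replicate 3 exceeded the lowest WT library; without it the difference was -0.26.

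Of 25 MHC class I presentation genes 6 fell and 1 rose (median -0.07, against 9.32% lower and 11.6% higher over all genes). Without KO replicate 3, 9 fell and the median was -0.21; the other fits without 1 library gave 4 to 5 lower, and the covariates 0 (median -0.10, with the median SE of its members at 0.19 in place of 0.09). The immunoproteasome genes Psmb9 (-0.40 ± 0.09), Psme1 (-0.24 ± 0.06) and Psmb8 (-0.22 ± 0.05) fell, while the class I heavy chain H2-D1 rose by 0.30 ± 0.05; H2 genes are near-identical copies, so its reads are uncertain. Of 14 class II and co-stimulation genes tested, 2 fell and 2 rose, shares near those over all genes (9.32% and 11.6%). Cd74, the invariant chain, was at 94.1, 97.02 and 94.2 CPM in WT and 42.2, 41.04 and 38.4 CPM in KO (log2 fold change -1.23 ± 0.05 (SE), adjusted p = 4.6e-26). Its groups were widely separated, replicate 3 included. H2-DMa, a peptide-loading chaperone, fell by 0.60, and Cd80, a co-stimulatory ligand, rose by 0.36 ± 0.12, called in 2 of the 6 fits without 1 library.

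Of 39 NF-kB and cytokine genes tested 9 fell and 8 rose (median -0.05, against 9.32% lower and 11.6% higher over all genes), and chemokines were among those that fell. Pf4, platelet factor 4 (Cxcl4), was at 929, 1006 and 932 CPM in WT and 548, 549.7 and 535 CPM in KO (log2 fold change -0.81 ± 0.03 (SE), adjusted p = 3.0e-30). Ccl2, a monocyte chemoattractant, was at 508, 519 and 461 CPM in WT and 291, 331 and 364 CPM in KO (log2 fold change -0.59 ± 0.06 (SE), adjusted p = 1.1e-06) and Ccl6 at 2230.0, 2223 and 2194 CPM in WT and 1665, 1627 and 1673 CPM in KO (log2 fold change -0.42 ± 0.03 (SE), adjusted p = 6.6e-17). In all 3 genes every KO library was below every WT library. Ppbp (Cxcl7), of the same chemokine family as Pf4, was at 92.9, 106 and 85.2 CPM in WT and 20.004, 18.7 and 19.4 CPM in KO (log2 fold change -2.29 ± 0.09 (SE), adjusted p = 3.8e-17), with a KO to WT ratio of 0.205 and KO libraries close together. Cxcl3, a neutrophil chemoattractant, was at 30.4, 29.9 and 27.5 CPM in WT and 5.82, 6.18 and 6.53 CPM in KO (log2 fold change -2.24 ± 0.21), Cxcl2 fell with a difference of -1.44 ± 0.15 and Ccl7 with one of -1.31 ± 0.12. Ppbp, Cxcl3, Cxcl2 and Ccl7 were picked after their values were seen. In the other direction Tnfaip3 (A20), a brake on NF-kB, rose by 0.30 ± 0.04 and Tnfaip2 by 0.25 ± 0.03.

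Lysosomal genes rose together in KO, each by a modest amount. All 45 listed genes were tested; 38 rose, 37 of them without overlap (11.2% of all genes were called higher without overlap), and 1, Ctsc, fell, with a median of 0.29 against 11.6% higher and a median of 0.00 over all genes. Leaving out any 1 library gave 36 to 39. Ctsd, an aspartic protease, was at 5474, 5464 and 5560.1 CPM in WT and 7978, 8160.3 and 7987 CPM in KO (log2 fold change 0.55 ± 0.02 (SE), adjusted p = 2.3e-26). Ctsb, a cysteine protease, was at 9010.2, 9335 and 9219 CPM in WT and 11857, 12155 and 12243 CPM in KO (log2 fold change 0.40 ± 0.02 (SE), adjusted p = 4.5e-21), and Cd68, a lysosomal glycoprotein of phagocytes, at 935, 987 and 980.3 CPM in WT and 1322, 1334 and 1286 CPM in KO (log2 fold change 0.44 ± 0.03 (SE), adjusted p = 1.8e-19). Every KO library exceeded every WT library in these genes, and the replicates lay close together. Atp6v0d2, a subunit of the proton pump, rose from 391 ± 9.83 CPM to 582 ± 10.5 CPM (mean ± SD, n = 3, 0.57 ± 0.03 on the log2 scale). Against a fold of 1.2, 14 rose. Markers of several other cell types described further on fell in the same libraries, though the sums for oligodendrocytes and endothelium did not. With Ttr and Pdgfra as covariates, 26 lysosomal genes rose and the median was 0.25, with the median SE of the members at 0.06 in place of 0.03.

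Promoters of lysosomal genes often hold an E-box, CACGTG, the core of the element read by TFEB and TFE3. Stretches from 3 genes are shown with the matches in capitals (RefSeq, GRCm38.p6, along the gene's strand). The genes were chosen among listed genes that rose and hold the motif, ranked by p, so all 3 have it by choice.
Atp6v1a: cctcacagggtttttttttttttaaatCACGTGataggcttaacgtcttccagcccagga
Glb1: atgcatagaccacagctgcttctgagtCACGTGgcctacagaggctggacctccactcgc
Lamp1: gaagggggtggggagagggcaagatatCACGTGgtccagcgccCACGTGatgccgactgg
They are at chr16:44139358-44139417 on the minus strand (Atp6v1a), chr9:114401003-114401062 on the plus strand (Glb1) and chr8:13159073-13159132 on the plus strand (Lamp1). Atp6v1a, a proton pump subunit, rose by 0.37 ± 0.03, Glb1, a beta-galactosidase, by 0.52 ± 0.04 and Lamp1, a lysosomal membrane glycoprotein, by 0.25 ± 0.03 on the log2 scale. CACGTG occurred within 250 bases upstream in 11 of 36 listed genes found in the RefSeq table (30.6%), in 6.02% of all windows and in 9.90% of tested genes found there. The motif reads the same on both strands. As above, a match is a description.

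Genes of the disease-associated microglia programme, a set raised in microglia around plaques and in demyelination, share members with the lysosomal list and mostly rose. Of 33 genes 24 rose and 3 fell (median 0.21, against 11.6% higher over all genes). With the covariates 13 rose (median 0.20, with the median SE of its members at 0.06 in place of 0.03), and against a fold of 1.2, 9. Gpnmb, a glycoprotein of phagocytes, was at 11461, 11881 and 12032 CPM in WT and 18509, 18477 and 18975 CPM in KO (log2 fold change 0.66 ± 0.03 (SE), adjusted p = 1.5e-22). Timp2, a metalloproteinase inhibitor, was at 437, 451 and 437 CPM in WT and 693, 680.5 and 663 CPM in KO (log2 fold change 0.62 ± 0.03 (SE), adjusted p = 5.8e-25). Trem2, the lipid-sensing receptor of microglia, was at 548, 548 and 541 CPM in WT and 695, 685 and 695 CPM in KO (log2 fold change 0.34 ± 0.03 (SE), adjusted p = 7.0e-16). In these 3 genes the KO libraries were all above the WT libraries. Spp1 (osteopontin, 0.51 ± 0.03) and Lgals3 (galectin-3, 0.35 ± 0.03), picked after their values were seen, also rose. Apoe, the main lipid carrier, rose by 0.07 ± 0.02, with groups that overlapped and a call in 3 of the 6 fits without 1 library.

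Axl fell. This receptor of the TAM family, which binds Gas6 and serves uptake of dying cells, was at 277, 295 and 260.0 CPM in WT and 143, 152 and 158 CPM in KO (log2 fold change -0.88 ± 0.04 (SE), adjusted p = 1.6e-25), with no overlap. Its ligand Gas6 was at 415, 421 and 415 CPM in WT and 565, 551 and 549 CPM in KO (log2 fold change 0.41 ± 0.03 (SE), adjusted p = 2.3e-16), higher in every KO library. Among 21 TAM and scavenger receptor genes tested 8 rose and 4 fell (2 fell without WT replicate 2). Over all genes 11.6% rose and 9.32% fell. Colec12, a scavenger receptor, rose by 0.49 ± 0.03. Mfge8, a bridge to phosphatidylserine picked after its values were seen, rose by 0.52 ± 0.06.

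**Figure D4:**
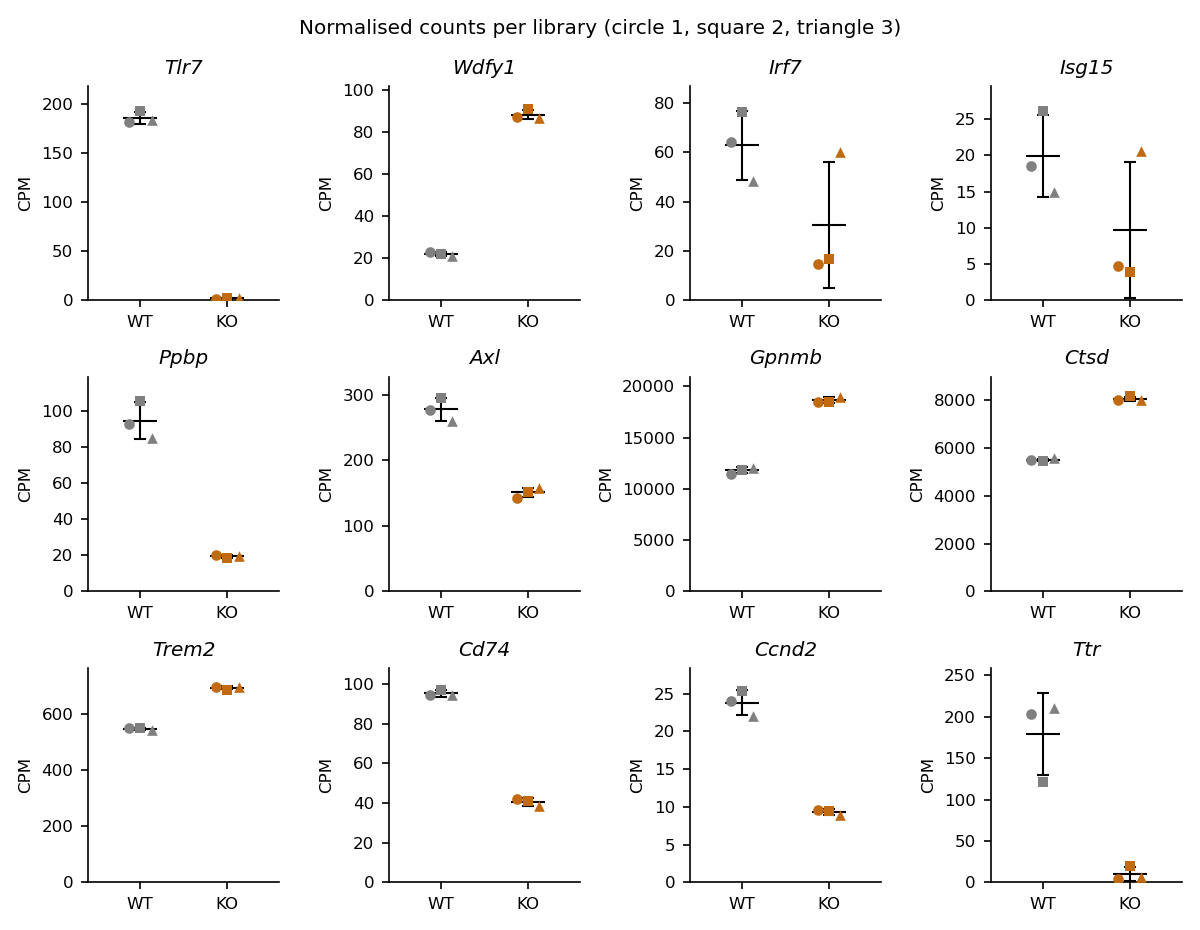
CPM in each of the 6 libraries for 12 genes, with 1 symbol per replicate number, the mean as a bar and the SD as error bars; vertical axes start at 0. Irf7 and Isg15 have KO replicate 3 among the WT values, whereas Wdfy1, Ppbp, Axl, Gpnmb, Ctsd, Trem2, Cd74 and Ccnd2 separate the groups completely; Ttr is spread within WT (122 to 211 CPM).

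Lipid genes rose in several branches. In cholesterol synthesis 13 of 25 genes rose and none fell (median 0.15, against 11.6% higher over all genes), and 4 rose with the covariates (median 0.22, with the median SE of its members at 0.15 in place of 0.06). Insig1, the sterol-sensing retention factor of the SREBP pathway, was at 121, 123 and 117 CPM in WT and 169, 172 and 153 CPM in KO (log2 fold change 0.45 ± 0.05 (SE), adjusted p = 2.8e-09), and the reductase Dhcr7 at 60.6, 64.5 and 60.97 CPM in WT and 87.3, 83.6 and 78.2 CPM in KO (log2 fold change 0.42 ± 0.05 (SE), adjusted p = 1.5e-09). Neither gene overlapped between groups. Msmo1 and Sqle, enzymes of the same chain, rose by 0.37 ± 0.05 and 0.32 ± 0.05. Of 15 lipid droplet genes tested 12 rose and none fell (median 0.22), and 3 rose with the covariates (median 0.11, with the median SE of its members at 0.09 in place of 0.04). Fabp4, a fatty acid carrier, was at 102, 104 and 101 CPM in WT and 149, 154 and 174 CPM in KO (log2 fold change 0.63 ± 0.04 (SE), adjusted p = 4.3e-17), Mgll, which hydrolyses monoacylglycerol, rose by 0.77 ± 0.07, Lipa, the lysosomal acid lipase, by 0.40 ± 0.03 and Soat1, which esterifies cholesterol, by 0.22 ± 0.03. Targets of LXR, the oxysterol receptor, rose in 3 of 21 cases and fell in 3 (median 0.04), shares near those over all genes (11.6% and 9.32%). The exporter Abca1 was at 214, 225 and 199 CPM in WT and 166, 136 and 168 CPM in KO (log2 fold change -0.44 ± 0.09 (SE), adjusted p = 0.0015), lower in every KO library. Apoc1, a lipoprotein component, fell by 0.54, while Pltp, a phospholipid transfer protein, rose by 0.62 ± 0.15 and Npc1, the lysosomal cholesterol exporter, by 0.27 ± 0.03.

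Oxidative defence genes under NRF2 rose in 13 of 21 cases tested and fell in 1 (median 0.21, against 11.6% higher over all genes), and 7 rose with the covariates (median 0.15, with the median SE of its members at 0.08 in place of 0.04). Gstm1, a glutathione transferase, was at 132, 122 and 129 CPM in WT and 197, 198 and 198 CPM in KO (log2 fold change 0.63 ± 0.04 (SE), adjusted p = 3.4e-21). The KO libraries were nearly equal and all above WT. Its relative Gsta3 rose 2.83-fold from a low level, at 2.88, 3.22 and 2.69 CPM in WT and 8.299, 8.43 and 8.19 CPM in KO. Cat (catalase) and Srxn1 (sulfiredoxin) rose by 0.50 ± 0.05 and 0.45 ± 0.05. In iron handling 7 of 15 genes tested rose and 1 fell (11.6% and 9.32% over all genes), with the transporters Slc11a1 (0.26 ± 0.03) and Slc11a2 (0.28 ± 0.04), the reductase Steap3 (0.40 ± 0.05) and the storage subunit Fth1 (0.20 ± 0.02) among the risers.

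Microglial surface and secreted genes went in both directions. Of 22 homeostatic genes tested, 10 fell and 5 rose (median -0.12, against 9.32% lower and 11.6% higher over all genes). Aif1 (IBA1) was at 36.6, 36.5 and 34.97 CPM in WT and 18.95, 20.6 and 23.6 CPM in KO (log2 fold change -0.78 ± 0.09 (SE), adjusted p = 1.0e-08) and Csf1r, the growth factor receptor on which microglia depend, at 1518, 1563 and 1540.3 CPM in WT and 1342, 1333 and 1352 CPM in KO (log2 fold change -0.20 ± 0.03 (SE), adjusted p = 1.1e-08). All KO libraries lay below all WT libraries in both. Cx3cr1, the fractalkine receptor, fell with a difference of -0.70 ± 0.09 and was picked after its values were seen, while Cst3, a cathepsin inhibitor, rose by 0.27 ± 0.03. Of 17 complement genes tested 6 rose and 6 fell (11.6% and 9.32% over all genes). C1qa and C1qb fell by 0.25 and 0.27, Cfp (properdin) by 0.33 and the receptor C5ar1 by 0.34, whereas the integrin subunit Itgb2 rose by 0.34 ± 0.03 and Cd59a, an inhibitor of the terminal complex, rose 3.11-fold, at 4.002, 3.41 and 4.66 CPM in WT and 12.4, 13.7 and 11.5 CPM in KO. Of 17 matrix protease genes tested 7 rose and 4 fell (2 without WT replicate 1 or either of KO replicates 1 and 2), with Mmp12, macrophage elastase, at 10284, 10249.9 and 10354 CPM in WT and 13631, 14045 and 13871 CPM in KO (log2 fold change 0.43 ± 0.04 (SE), adjusted p = 1.7e-07), Plaur up by 0.25 ± 0.03 and Mmp19 up by 0.31 ± 0.06.

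Cell cycle genes were lower. Of 40 genes 23 fell, 22 of them without overlap, and 1, Pcna, rose with a difference of 0.16 ± 0.04 (median -0.38, against 9.32% lower over all genes); 2 fell with the covariates (median -0.26, with the median SE of its members at 0.26 in place of 0.13) and 6 against a fold of 1.2. Ccnd2, a D-type cyclin, was at 24.01, 25.3 and 21.999 CPM in WT and 9.54, 9.502 and 8.89 CPM in KO (log2 fold change -1.35 ± 0.11 (SE), adjusted p = 5.1e-14). Its relative Ccnd1 was at 163, 168 and 149.6 CPM in WT and 119, 128 and 124 CPM in KO (log2 fold change -0.38 ± 0.04 (SE), adjusted p = 1.1e-10). Both were separated between groups. The replication helicase subunits Mcm5 and Mcm7 fell by 0.54 and 0.50. Markers of oligodendrocyte precursors, which also divide, fell in the same libraries (sums given further on), and their part in the result was not tested. Of 28 ATF4 and unfolded protein response genes 8 rose and 4 fell (11.6% and 9.32% over all genes), with Trib3 (0.80 ± 0.19), Edem1 (0.24 ± 0.03) and Atf3 (0.23 ± 0.03) up and Pdia4 down by 0.23. The risers were 5 without WT replicate 3, KO replicate 2 or KO replicate 3, the fallers 2 without WT replicate 1 or 2 and 1 without KO replicate 2, and no member was called with the covariates (median 0.01, with the median SE of its members at 0.11 in place of 0.06). Of 22 immediate early genes tested 6 fell and 4 rose (9.32% and 11.6% over all genes), the falls of Ier3, Myc and Fos being 0.39, 0.19 and 0.17 on the log2 scale. Without WT replicate 2 or 3, 3 fell and 2 rose, and without KO replicate 1 or 2, 1 rose. None of 12 mitochondrially encoded genes tested was called by edgeR (1 had an unadjusted p under 0.05 and DESeq2 called 0).

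Ranked by size among genes with at least 4 CPM in the higher group, the highest in KO were Hpse, Npy, Wdfy1, Col24a1, Rab4a, Cd59a, Gsta3, Ccbe1, Dio2, Mamdc2, Prickle2 and Itgb3, at 1.33 to 2.10. Hpse, heparanase, was at 2.88, 2.97 and 3.17 CPM in WT and 12.01, 12.8 and 13.9 CPM in KO (log2 fold change 2.10 ± 0.15 (SE), adjusted p = 5.9e-17). Npy, a neuropeptide, was at 10.3, 8.92 and 12.4 CPM in WT and 44.4, 41.2 and 45.9 CPM in KO (log2 fold change 2.05 ± 0.09 (SE), adjusted p = 6.5e-21). In both, each KO library was above 3 times the highest WT library. Itgb3, an integrin subunit, rose by 1.33 ± 0.10 and Mamdc2 by 1.33 ± 0.07. Among abundant genes Gpr137b, a lysosomal membrane protein, led with 306, 301 and 316 CPM in WT and 542, 561 and 547 CPM in KO (log2 fold change 0.84 ± 0.03 (SE), adjusted p = 3.5e-30); its pseudogene-labelled copy Gpr137b-ps rose by 0.61 ± 0.03, and reads may be shared. Lhfpl2, Plxna1 and CT010467.1 rose by 0.63 ± 0.03, 0.58 ± 0.06 and 0.62 ± 0.14. Thbs1, Plxdc2 and Il6st, an interleukin-6 family receptor chain, were among the abundant genes that fell, by 0.48, 0.47 and 0.46. Epas1 (HIF-2 alpha, 0.86 ± 0.05), Vwf (1.13 ± 0.06), Cxcr4 (0.98 ± 0.08) and Saa3 (1.09 ± 0.07) also rose and were picked after their values were seen.

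By the same ranking, which leaves out Gm, Rik and clone symbols such as G530011O06Rik, the largest falls after Tlr7 were Trpm3, Ttr, Ace, Col8a1, A2m, Enpp2, Igfbp2, Col1a2, Vat1l, Mid1 and Atp1b1, at -4.10 to -2.36. Of these Ttr and Enpp2 stand in the choroid and ependymal marker list and Col1a2 and Igfbp2 in the fibroblast and mural list. Ttr, transthyretin of the choroid plexus, was at 204, 122 and 211 CPM in WT and 3.78, 20.3 and 6.78 CPM in KO (log2 fold change -4.10 ± 1.09, adjusted p = 0.012), and was called in 4 of the 6 fits that left out 1 library. Enpp2 was at 57.5, 35.7 and 72.2 CPM in WT and 4.03, 9.92 and 3.26 CPM in KO. KO libraries were all below WT in both, by a wide margin, and the WT libraries varied among themselves. Trpm3, Col8a1 and Enpp2 were each called in 1 of the 6 fits that left out 1 library, Vat1l in 2, Atp1b1 in 3 and Ace in 4. The 12 choroid and ependymal markers summed to 166 to 300 CPM in WT and 8.98 to 32.7 CPM in KO. Of the 9 tested 3 fell and none rose, against 9.32% lower and 11.6% higher over all genes. Without KO replicate 1, 1 fell, and without KO replicate 3, 0 did. Of the 12 markers 3 had no count in KO. Fewer cells of a type and less RNA per cell cannot be told apart in such bulk samples.

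The markers of other lineages were summed in the same way. Their counts of genes called stand against 9.32% lower and 11.6% higher over all genes. The 11 oligodendrocyte precursor markers summed to 141 to 149 CPM in WT and 116 to 131 CPM in KO, with 5 of 8 tested lower and 1 higher. Olig2 was at 13.7, 14.1 and 16.5 CPM in WT and 5.14, 6.41 and 5.63 CPM in KO (log2 fold change -1.36 ± 0.15 (SE), adjusted p = 1.5e-10), Pdgfra at 15.2, 21.2 and 19.4 CPM in WT and 10.96, 10.9 and 9.404 CPM in KO (log2 fold change -0.84 ± 0.12 (SE), adjusted p = 9.9e-08) and Ptprz1 fell with a difference of -1.08 ± 0.13, whereas Cspg4 rose by 0.44 ± 0.06. Of 11 astrocyte markers tested 5 fell and 1 rose, with sums of 82.8 to 84.3 CPM in WT and 53.2 to 73.8 CPM in KO. Atp1b2 (-1.72 ± 0.17), Slc1a2 (-1.27 ± 0.21), Sox9 (-2.30 ± 0.45) and Gja1 (-2.45 ± 0.66) fell. Differences were negative in 8 of the 11 and positive in 3. Raw counts, picked after they were seen, were not lower for Aldh1l1 (1020 in WT and 1053 in KO), Aldoc (861 and 884) and S100b (47 and 91). Of 6 neuronal markers 2 fell (Map2 -1.22 ± 0.16, Tubb3 -0.73 ± 0.24, the latter called in 3 of the 6 fits without 1 library), with sums of 16.4 to 16.9 CPM in WT and 7.72 to 9.17 CPM in KO. Of 6 fibroblast and mural markers 5 fell (2 or 3 in each fit without 1 library and 0 with the covariates), with sums of 33.8 to 47.0 CPM in WT and 7.96 to 11.8 CPM in KO. Oligodendrocyte markers, with 1 of 10 lower (Cnp), summed to 206 to 245 CPM in WT and 212 to 246 CPM in KO, and endothelial markers, with Flt1 higher (called in 1 of the 6 fits without 1 library) and Pecam1 lower, to 51.0 to 54.9 and 55.4 to 62.5 CPM. Border-associated macrophage markers summed to 3545 to 3814 CPM in WT and 2776 to 3058 CPM in KO; Pf4 and Stab1 (-0.26 ± 0.04) fell and Ms4a7 (0.59 ± 0.05) and Folr2 (0.56 ± 0.20, called in 1 of those 6 fits) rose. The part of these cells in the results above was not tested, beyond the fit with Ttr and Pdgfra as covariates.

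The same deletion in female DMSO microglia, measured in 6 other libraries, gave 1721 called genes (11.9%), and a test of the difference between the male and female effects called 1089 genes (7.53%), 605 with the more positive value in males and 484 with the more negative one. The balance was not stable: it was 500 and 603 without a count filter, 431 and 512 with the 12 libraries alone, 487 and 489 by DESeq2, 49 and 223 against a fold of 1.2, 419 and 449 without male KO replicate 1, 411 and 448 without female KO replicate 2 and 501 and 571 without female KO replicate 3. With the covariates, whose own effects differed between the sexes by the same test (Ttr -4.88, Pdgfra -1.32), 27 were called. Lysosomal genes rose more in males: 28 of 45 had a more positive effect there by the test and none a more negative one. In females 20 rose (5.42% of all genes) and 2 fell, with a median of 0.09. The count of 28 was 26 without female KO replicate 1 and 25 without male KO replicate 3. Ctsb, for instance, had a female effect of 0.03 (difference adjusted p = 1.3e-12) and Lamp1 one of 0.00 (difference adjusted p = 1.0e-06). In the disease-associated list 14 genes had the more positive effect in males and 3 in females, by the same test. Gas6 had a female effect of -0.07 (difference adjusted p = 6.2e-12). None of the 74 interferon-stimulated genes was called for a difference between the sexes by edgeR (2 had an unadjusted p under 0.05 and DESeq2 called 0), and 39 fell in females, where 6.48% of all genes fell (median -0.76). Ppbp fell less in females (-1.42, difference adjusted p = 1.8e-05), and Cd74 likewise (-0.51, difference adjusted p = 3.3e-10). Cell cycle genes fell in both sexes, in 20 of 40 cases in females. Ttr had a female effect of 0.78. In female KO replicate 1 the choroid markers summed to 698 CPM, against 62.4 and 78.6 CPM in the other female KO libraries.

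**Figure D5:**
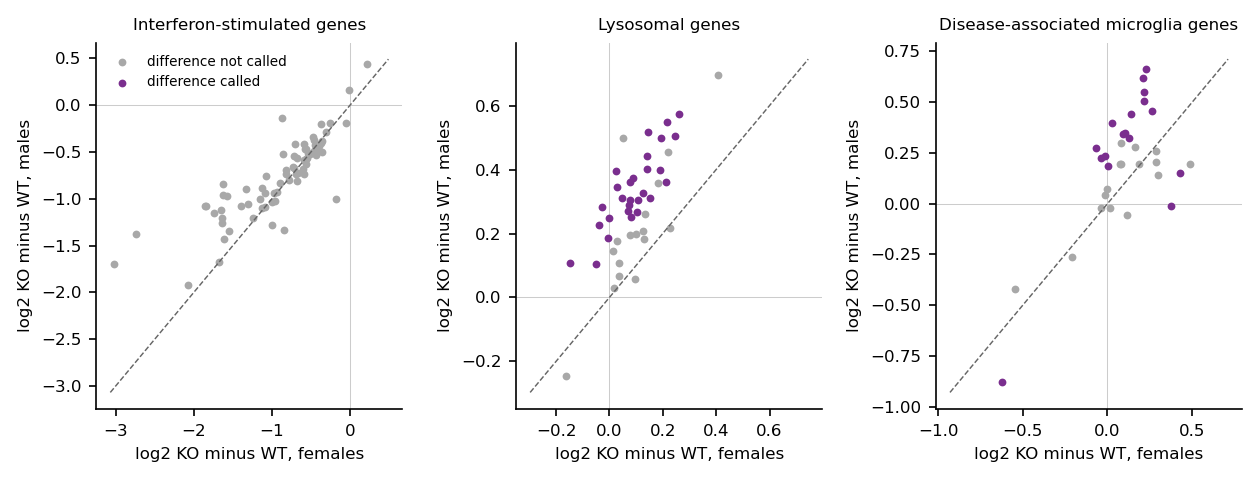
Log2 fold change (KO minus WT) in males (vertical axis) against females (horizontal axis) for tested members of 3 gene lists, with genes whose male and female effects differ by the test in purple and equality as a dashed line. No interferon-stimulated gene is purple, 28 lysosomal genes are, all above the line, and of the disease-associated genes 14 are above it and 3 below.

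With myelin in place of DMSO, in 6 other male libraries, 2987 genes were called between KO and WT (20.6%), and the difference between the myelin and DMSO effects was called for 371 genes (2.56%), 114 more positive with myelin and 257 more negative (204 and 223 without a count filter, 176 and 237 by DESeq2). The balance turned without myelin WT replicate 1 (157 and 142) and without myelin KO replicate 1 (166 and 159). The test takes DMSO and myelin libraries as independent, and whether they share cultures is not given by the labels. Interferon-stimulated genes fell in 72 of 74 cases there (10.6% over all genes; median -1.08), Irf7 with a difference of -2.01; the difference from DMSO was called for 2 of the 74. Lysosomal genes rose in 35 of 45 cases (10.1% over all genes; median 0.18), with the difference called for 12. Gpnmb rose less with myelin (0.32, difference adjusted p = 4.7e-08), and so did Gpr137b (0.43, difference adjusted p = 2.9e-10). Cell cycle genes were called lower in 4 of 40 cases with myelin, a share near the 10.6% over all genes, with a median of 0.03. The difference from DMSO was called for 8 of the 40, against 2.56% over all genes.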

How the data were processed

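Raw read counts per gene, deposited by the authors in 1 table for 24 primary microglia libraries, were used as deposited; per the submitters' processing notes the builds are GRCm38 and mm10 and DESeq2 1.38.3 was among the tools. For the aligner, the counter and its strand setting: not given in the sources used here. Libraries were assigned by their labels (sex, genotype, treatment), 3 per group. Genes passing edgeR's filterByExpr over the 8 groups were fitted with edgeR 4.0.16 (R 4.3.3) as 1 mean per group over all 24 libraries, with TMM scaling and robust quasi-likelihood tests, 2-sided, and Benjamini-Hochberg adjustment over all genes tested. This leaves 16 residual degrees of freedom. Fold changes are edgeR's log2 estimates. Their SE was derived as the size of the estimate over the square root of its F statistic in the fit of all 24 libraries. The scripts were tested on simulated data. Members and gene lists were chosen with earlier results of these data known. Genes were named by rule: a fixed set and the protein-coding genes within 2 Mb of Tlr7, the 12 largest called changes per direction of at least 4 CPM without overlap and with no Gm, Rik, pseudogene or clone symbol, the 8 largest of at least 200 CPM, and up to 4 called members of each of 33 lists by smallest p; others are marked in the text as picked after their values were seen, and so were Ddx3y, Xist, Ctsc, Ms4a6d, Pcna, Glb1, Atp6v1a, Lamp1, Cd3e, Ncr1 and Ly6g. Some items that the rule names are not reported here. Alternatives used RLE scaling, DESeq2 1.42.0, other filters, the 6 libraries alone, a replicate block, leaving out libraries, covariates and a fold threshold. A depth of 15450170 to 17038825 counts limits precision for genes of a few CPM.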

Additional observations from a re-analysis of the deposited data

Results flagged for a closer look

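The effect of the deletion differed between male and female DMSO microglia, by edgeR's test of the difference, in the genes named here. Values in brackets are the male minus the female effect on the log2 scale, so a positive value means a more positive change in males. Among lysosomal and disease-associated microglia genes, the male effect was more positive in Gpnmb (0.43), Timp2 (0.41), Glb1 (0.37), Ctsb (0.37), Ctsd (0.33), Atp6v0d2 (0.31), Cd68 (0.30), Spp1 (0.29), Atp6v1a (0.29), Lamp1 (0.25), Trem2 (0.25), Lgals3 (0.24), Lipa (0.21), Npc1 (0.16) and Ctss (0.15), and more negative in Axl (-0.26). Among TLR, interferon-loop, sensor, cytokine and antigen presentation genes, the male effect was more positive in Cd180 (0.27), Tlr13 (0.25), Tlr8 (0.21) and Pld3 (0.16), and more negative in Cxcl2 (-0.92), Cd74 (-0.72), Ikbke (-0.35), Irf5 (-0.22) and Pf4 (-0.14). Among lipid, iron, NRF2 and scavenger genes, the male effect was more positive in Gas6 (0.48), Steap3 (0.40), Colec12 (0.37), Fabp4 (0.32), Insig1 (0.24), Gstm1 (0.21) and Soat1 (0.12), and more negative in Apoc1 (-0.99). Among markers of other cell types, the male effect was more negative in Col3a1 (-6.42), Ttr (-4.88), Igfbp2 (-3.64), Gja1 (-3.61), Sox9 (-3.54), Atp1b2 (-1.95), Olig2 (-1.56), Ptprz1 (-1.52), Map2 (-1.44), Pdgfra (-1.32), Slc1a2 (-1.16) and Cspg4 (-0.43). Among all other named genes, the male effect was more positive in Hpse (1.29), Vwf (0.77), CT010467.1 (0.73), Epas1 (0.69), Cxcr4 (0.66), Ms4a7 (0.58), Npy (0.54), Itgb3 (0.49), Plxna1 (0.48), Lhfpl2 (0.38), Edem1 (0.21), Pcna (0.21), Gpr137b (0.20), Gpr137b-ps (0.18), Pdia4 (0.17) and Atf3 (0.15), and more negative in A2m (-4.57), Ace (-4.47), Atp1b1 (-3.20), Cxcl3 (-1.23), Gpm6b (-1.23), Ppbp (-0.87), Ccnd2 (-0.62), Il6st (-0.24) and Csf1r (-0.20). Adjusted p-values ran from 1.3e-12 to 0.049. With Ttr and Pdgfra as covariates, 27 genes of all those tested had a called difference between the sexes. Without female KO replicate 1, which held high choroid markers, the call was lost for Ttr (-2.86), Tlr8 (0.19), Ace (-2.38), Igfbp2 (-2.55), Atp1b1 (-2.60), CT010467.1 (0.64), Pf4 (-0.12), Ctss (0.12), Insig1 (0.22), Npc1 (0.14), Soat1 (0.12), Atf3 (0.13), Pdia4 (0.16) and Col3a1 (-5.31). Without male KO replicate 3 it was lost for Ttr (-4.68), Tlr8 (0.20), Ace (-4.28), Igfbp2 (-3.43), Atp1b1 (-2.91), Ctss (0.10), Npc1 (0.13), Soat1 (0.10), Atf3 (0.13), Pdia4 (0.11) and Col3a1 (-6.61).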

How the results depend on the processing

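The 3027 called genes came to 2784 (DESeq2) to 3186 (replicate block) under RLE scaling, other count filters, the 6 libraries alone, the block and DESeq2, and to 2304 to 2587 when 1 library was left out. They were 532 with Ttr and Pdgfra as covariates (350 higher, 182 lower) and 725 against a fold of 1.2 (290 higher, 435 lower). For the difference between sexes (1089) these 2 alternatives gave 27 and 272, and leaving out 1 library 809 to 1072. For the difference between myelin and DMSO (371) the fold threshold gave 12 and leaving out 1 library 270 to 347. With the covariates the sign turned for Pdgfra (0.0019, itself a covariate), Ofd1 (0.31), Tceanc (0.60), Frmpd4 (0.75), Trpm3 (0.27), Col8a1 (0.27), Enpp2 (0.66), Igfbp2 (0.25), Vat1l (0.87), Atp1b1 (0.64) and Col3a1 (2.05); the cause was not tested. Gemin8, not called, lay between -0.27 and 0.062 when 1 library was left out. Of 181 named genes, 101 kept their call and direction with the covariates, 112 against the fold threshold, 177 by DESeq2 and 162 to 171 with 1 library left out. List counts under these alternatives were chosen after seeing the data.

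Replicate numbers did not pair WT with KO libraries in male DMSO microglia. Deviations of same-numbered WT and KO libraries from their group means correlated at 0.06, -0.14 and -0.19 over 9698 genes. Whether a number pairs DMSO with myelin libraries was not tested. The replicate block below is shared by all 8 groups and does not model such a pairing. With the number as a replicate block 3186 genes were called, 1220 for the difference between sexes and 445 for that between myelin and DMSO. Depth limits genes of a few CPM, and 3 libraries a group limit all errors.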
